A study of Mus musculus with 8 samples.

Results

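The AMPA and kainate receptors are the fast glutamate receptors of the retina, and their subunits are encoded by 9 genes, Gria1 to Gria4 and Grik1 to Grik5. These genes were taken by name, not by any measured value, and all 9 were among the 17500 genes of the count table and among the 16797 genes with enough counts to be tested. RNA-seq was performed on whole retinas of 6 month old C57BL/6J mice, 4 labelled Rbfox2 KD and 4 labelled control. Rbfox2 KD animals were Rbfox2 fl/fl and carried a tamoxifen-activated Cre recombinase that is expressed in many tissues, not in the retina alone, and controls were age-matched heterozygous Rbfox2 fl/+ mice. The labels give a tamoxifen treatment of 4 months for every sample, whereas the study's methods describe gavage of the Rbfox2 fl/fl adults that carry Cre with tamoxifen, with retinas taken 4 months later. The methods name tamoxifen or a corn oil vehicle without saying which the controls received, so the sources differ on the treatment of the controls, and whether the controls carried Cre is not given in the sources used here. The comparison asks whether the level of any subunit transcript differs in retinas with less Rbfox2, an RNA-binding protein that regulates splicing.

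AMPA and kainate receptors are cation channels made of 4 subunits. In the outer retina, glutamate released by photoreceptors reaches horizontal cells and OFF bipolar cells through these channels, while ON bipolar cells use a metabotropic receptor instead. In the inner retina, bipolar cells release glutamate onto AMPA and kainate receptors of amacrine and retinal ganglion cells. GluA2, the product of Gria2, makes AMPA receptors nearly impermeable to calcium because its pore codon is edited in the RNA from glutamine to arginine, and GluK1 and GluK2 are edited in part at the matching codon. Grik1, Grik2 and Grik3 encode kainate subunits that can form channels by themselves, and Grik4 and Grik5 encode high-affinity subunits that need one of them as a partner.

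The pore codon is shown because it is the best known position at which these subunits differ in their RNA. The sequences are read 5′ to 3′ from annotated transcripts matched by the RefSeq accession of each gene, positions are on mouse build GRCm38, and the capitals mark the codon. The windows of Grik1, Grik2 and Grik3 stop at the end of their exon.
Gria1 (exon 11 of 16, chr11:57243079-57243108, plus strand): ctgggggccttcatgCAGcaaggatgtgac
Gria2 (exon 11 of 16, chr3:80706899-80706928, minus strand): ttgggtgcctttatgCAGcaaggatgcgat
Gria3 (exon 11 of 16, chrX:41610250-41610279, plus strand): ttgggtgcttttatgCAGcaaggatgtgat
Gria4 (exon 12 of 17, chr9:4464125-4464154, minus strand): ctgggtgcctttatgCAAcaaggatgtgac
Grik1 (exon 12 of 17, chr16:87940539-87940559, minus strand): gttggagctctcatgCAGcaa
Grik2 (exon 12 of 17, chr10:49244326-49244346, minus strand): gttggagctctcatgCAGcaa
Grik3 (exon 12 of 16, chr4:125691192-125691212, plus strand): atgggctccctgatgCAGcaa
Grik4 (exon 16 of 21, chr9:42547611-42547640, minus strand): gttggaggcttcatgCAGcaaggctccact
Grik5 (exon 15 of 20, chr7:25022485-25022514, minus strand): gtgggtggcttcatgCAGcagggctcggag
The genomic codon is CAG in 8 of the 9 genes and CAA in Gria4, both for glutamine. Over these windows Gria3 differs from Gria2 at 2 bases, Gria4 at 4 and Gria1 at 5. The windows of Grik1 and Grik2 are identical, and that of Grik3 differs from them at 6 of 21 bases. Gene counts do not distinguish edited from unedited RNA, so the extent of editing was not measured here.

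The libraries held 160630226 to 211283591 counted fragments, so that 3 counts, a limit of detection for counting error alone, correspond to 0.0144 to 0.0189 CPM (counts scaled to library size by edgeR with TMM factors). Rbfox2 (chr15:77078990-77307004) was at 144 to 157 CPM in the control retinas and at 53.6 to 59.4 CPM in the Rbfox2 KD retinas. It fell to 37.7% of control (log2 fold change of -1.41 ± 0.05 SE, adjusted p = 5.51e-07, edgeR's quasi-likelihood test, adjusted by Benjamini-Hochberg over all tested genes), and these counts include exons outside the deleted ones. In all, 11 genes (0.0655% of those tested) passed an adjusted p of 0.05. Mice M901 and M902 stood apart from the other 6 on the first principal component (40.5% of the variance), with Xist at 1440 and 1739 CPM against 1.71 to 2.22 CPM in the others, and both were Rbfox2 KD. M901 and M902 also had the lowest levels of the ciliary and pigment epithelium markers Best2 and Slc13a4. The labels do not give the sex of the mice. No control had Xist at such a level, so the Xist difference is partly confounded with the group. What sets M901 and M902 apart was not tested. All 9 marker lists used to check the tissue, from rods to Muller glia, were detected in every retina.

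No difference between Rbfox2 KD and control retinas passed the test for any of the 9 subunit genes, and the fitted changes were small in both directions. At an adjusted p of 0.05 the count was 0 of 9, and at an unadjusted p of 0.05 it was also 0 of 9 in edgeR, in DESeq2, in limma-voom and in limma-trend. Among all tested genes, 6.42% were higher and 6.87% were lower at that unadjusted threshold. The fitted change was above 0 for 5 subunits and below 0 for 4, with a median of 0.00 on the log2 scale against 0.00 over all tested genes. The median size of the change, whatever its sign, was 0.04 for the subunits and 0.07 for all tested genes. With 4 retinas a group the standard errors were 0.03 to 0.08, and the 95% intervals of all 9 changes lay between -17.2% and 22% in relation to control. In none of the 9 were the groups fully separated. Of all tested genes, 3.64% had every Rbfox2 KD retina above every control and 3.39% had every one below. With shares this low, 0 of 9 does not set the subunits apart. In whole-retina RNA, fewer cells of a type and less RNA per cell cannot be told apart, and a change in a scarce cell type can be diluted by subunit RNA from the others.

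**Figure D1:**
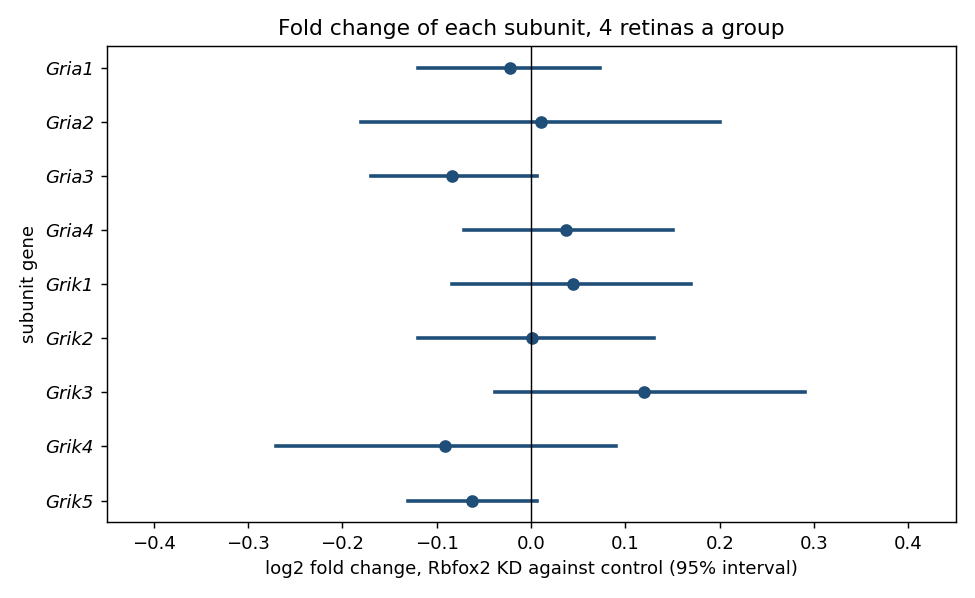
Log2 fold change (x axis) of each of the 9 subunit genes (y axis) in 4 Rbfox2 KD against 4 control retinas. Points are edgeR estimates and lines are 95% intervals. Every interval includes 0, the widest reach belongs to Grik4 on the left (-0.27) and Grik3 on the right (0.29), and the shortest interval is that of Grik5.

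Among the AMPA receptor genes, Gria1 (chr11:57011387-57330244), which encodes GluA1, had 74.5, 68.8, 72.2 and 68.9 CPM in control mice M833, M894, M896 and M898. It had 71.4, 73.3, 69.1 and 66.4 CPM in Rbfox2 KD mice M893, M901, M902 and M909. The groups overlapped, and only M909 was below all controls. The change was -0.02 ± 0.04 (log2, SE; unadjusted p = 0.623, adjusted p = 0.867, edgeR).

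Gria2 (chr3:80681450-80802835), the gene of the edited subunit GluA2, was the most variable of the AMPA genes. In control mice, listed in the same order, its levels were 130, 131, 119 and 100 CPM, and in Rbfox2 KD mice they were 119, 112, 133 and 121 CPM. The lowest retina was control M898 and the highest was Rbfox2 KD M902, and the ranges of the groups overlapped. The change was 0.01 ± 0.08 (log2, SE; adjusted p = 0.972, edgeR) with a 95% interval of -11.5% to 14.7% in relation to control. The coefficient of variation between control retinas was 12%, against 0.671% from counting error alone, so that counting error was a small part of the spread.

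Gria3 (chrX:41400854-41678601) encodes GluA3 and had the lowest p of the 9. The control retinas were tightly grouped at 49.4, 49.2, 51.3 and 49.5 CPM, and the Rbfox2 KD retinas were at 49.5, 47.2, 44.6 and 46.8 CPM. M901, M902 and M909 were below all controls, while M893 was within them. The change was -0.08 ± 0.04 (log2, SE), 94.3% of control, with an unadjusted p of 0.064 and an adjusted p of 0.403 in edgeR. An exact two-sided permutation test over the 70 ways to divide the 8 mice gave p = 0.114, where the smallest possible p is 0.0286. Leaving out M901 and M902 gave -0.05 (unadjusted p = 0.311), and leaving out M893 gave -0.11 (unadjusted p = 0.0263, adjusted p = 0.351). Gria3 is on the X chromosome, and the part of the Xist difference in its values was not tested.

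Gria4 (chr9:4417896-4796234), the gene of GluA4, had 84.8, 87.9, 94.1 and 88.4 CPM in the control mice and 92, 98.5, 86.3 and 87.8 CPM in the Rbfox2 KD mice. Only M901 was above all controls. Its change was 0.04 ± 0.05 (log2, SE; adjusted p = 0.781, edgeR).

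Among the kainate receptor genes that encode channel-forming subunits, Grik1 (chr16:87895900-88290265) encodes GluK1, a receptor subunit of OFF bipolar cells. Its control levels were 129, 105, 113 and 114 CPM, and its Rbfox2 KD levels were 113, 119, 121 and 121 CPM. All Rbfox2 KD retinas fell inside the control range, whose highest value came from M833. The change was 0.04 ± 0.06 (log2, SE; unadjusted p = 0.459, adjusted p = 0.781, edgeR), and without M833 it was 0.10 (unadjusted p = 0.0385, adjusted p = 0.262).

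Grik2 (chr10:49094833-49788766), the gene of GluK2, gave the value closest to 0. Control retinas had 17.9, 16.7, 17.7 and 15.5 CPM, and Rbfox2 KD retinas had 16.6, 17.4, 16.4 and 17.5 CPM. The change was 0.00 ± 0.06 (log2, SE; adjusted p = 0.994, edgeR), with a 95% interval from -8.27% to 9.24% in relation to control.

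Grik3 (chr4:125490700-125714173), which encodes GluK3, had the largest fitted change. Its levels were 24.4, 23.8, 23.4 and 21.8 CPM in control mice and 25.7, 28.9, 22.4 and 25 CPM in Rbfox2 KD mice. In Rbfox2 KD, 3 of 4 retinas were above all controls, and M902 was above control M898 only. The change was 0.12 ± 0.07 (log2, SE), 109% of control, with an unadjusted p of 0.12 and an adjusted p of 0.492 in edgeR. Its size moved with the retina left out, to 0.06 without M901 (unadjusted p = 0.366) and to 0.18 without M902 (unadjusted p = 0.0194, adjusted p = 0.45). It stayed above 0 under all 20 alternatives, and its adjusted p was 0.386 or more under each that gave one.

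Of the high-affinity subunit genes, Grik4 (chr9:42518135-42944493), the gene of GluK4, had the lowest counts of the family, 643 to 940 fragments per retina. Control levels were 4.08, 4.13, 4.91 and 4.42 CPM, and Rbfox2 KD levels were 4.07, 4.15, 4.05 and 4.19 CPM. The Rbfox2 KD retinas lay at the lower end of the control range and 2 of them were below all controls. The change was -0.09 ± 0.08 (log2, SE; adjusted p = 0.663, edgeR). Counting error gave a coefficient of variation of 3.57% for this gene, against 8.67% between control retinas.

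Grik5 (chr7:25009849-25072346) encodes GluK5 and was measured most precisely. Control levels were 115, 120, 118 and 116 CPM, and Rbfox2 KD levels were 115, 110, 115 and 109 CPM. In Rbfox2 KD, 3 of 4 retinas were below all controls. The change was -0.06 ± 0.03 (log2, SE), 95.7% of control, with an unadjusted p of 0.069 and an adjusted p of 0.411 in edgeR, and with p = 0.0571 in the exact permutation test. The unadjusted p was 0.0387 with upper-quartile normalization and 0.0487 without M833, and the adjusted p was 0.282 or more under each of the alternatives that gave one.

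**Figure D2:**
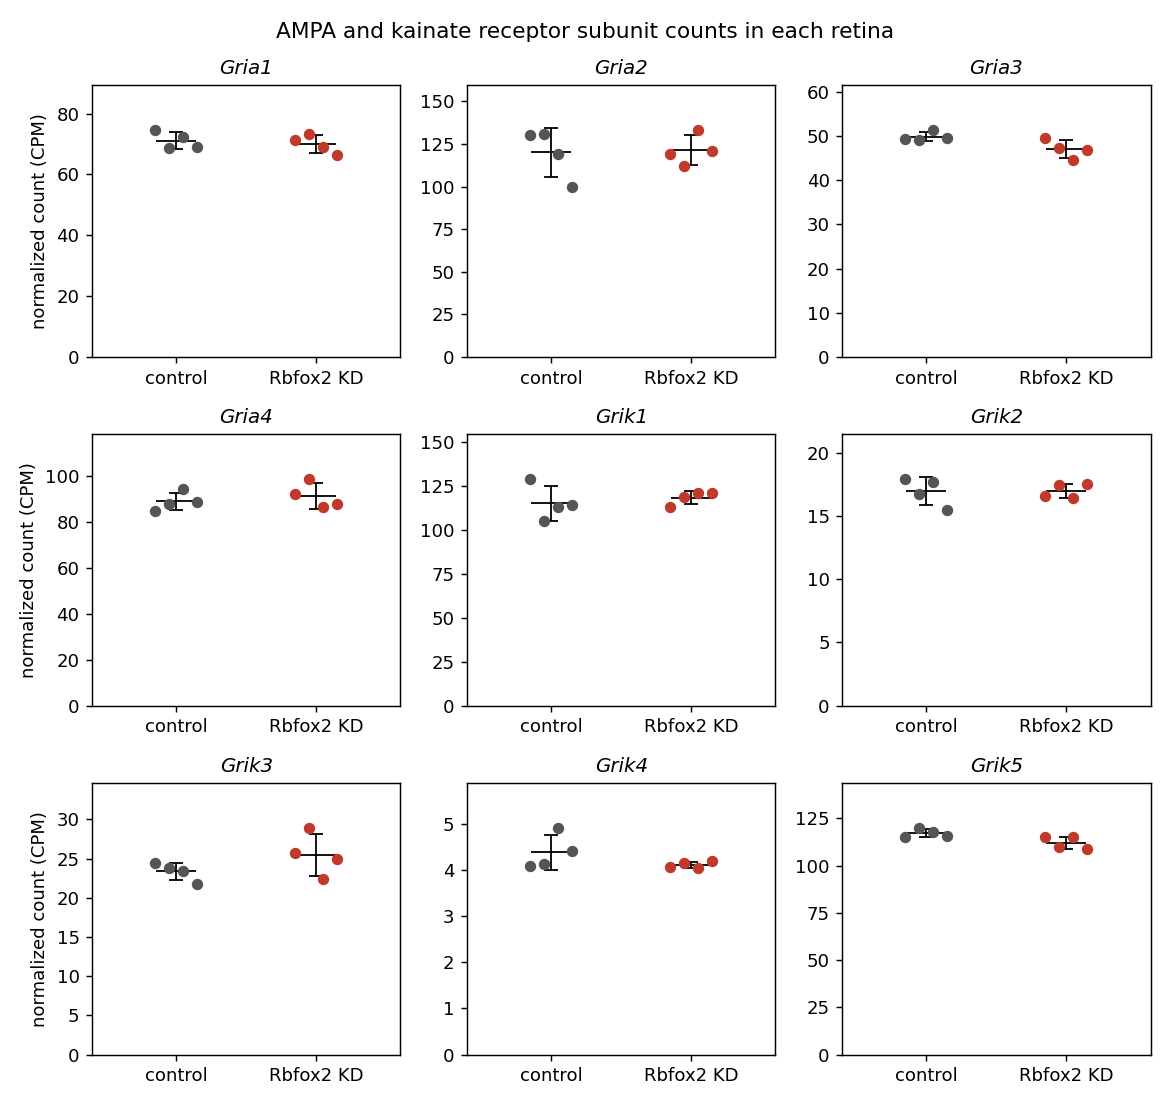
Normalized counts in CPM (y axis, from 0) of each subunit gene in the 4 control (grey) and 4 Rbfox2 KD (red) retinas. Each point is 1 retina, and the bar and whiskers are the mean and SD. In all 9 panels the groups overlap, as for Gria2, with controls at 100 to 131 CPM and Rbfox2 KD at 112 to 133 CPM.

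Levels were compared between genes on the deposited FPKM scale, which divides fragments by library total and by 1 length for each gene. Grik1 (32.7 ± 1.72 FPKM, SD, n = 8) and Grik5 (29.9 ± 1.23) were highest, and their ranges overlapped, with Grik1 above Grik5 in 7 of 8 retinas. Gria2 (17.6 ± 1.54) and Gria4 (16.5 ± 0.871) followed, also with overlapping ranges and Gria2 above Gria4 in 6 of 8 retinas. Below them, Gria1 was at 12.3 ± 0.452 FPKM and Gria3 at 9.33 ± 0.489 FPKM. Grik2 was at 3.55 ± 0.152 FPKM, Grik3 at 2.76 ± 0.234 FPKM and Grik4 at 1.22 ± 0.0925 FPKM. Apart from the Grik1 and Grik5 pair and the Gria2 and Gria4 pair, each gene was above the next in all 8 retinas without overlap. The order depended on the length. With the union of all annotated exons as the length (15548 bases for Gria2, against 6841 in the deposited FPKM), Grik5 came first, Grik1 second, and Gria2 fell from the third to the fifth place, and only Gria3 and Grik4 kept their places.

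**Figure D3:**
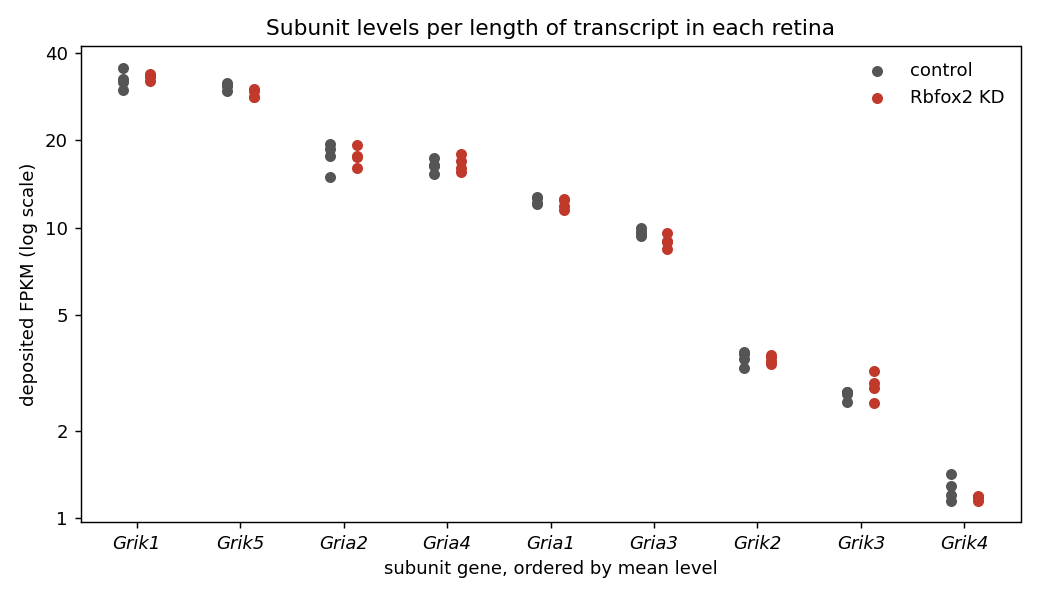
Deposited FPKM on a log axis (y axis) of each subunit gene (x axis, by mean level) in control (grey) and Rbfox2 KD (red) retinas, 1 point a retina. Grik1 and Grik5 sit near 30 FPKM, with means of 32.7 and 29.9, the AMPA genes between 8.48 and 19.5 FPKM, and Grik4 lowest at 1.15 to 1.42 FPKM.

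The make-up of each receptor family varied little between retinas. Gria2 made up 27.9% to 34.7% of the summed AMPA subunit FPKM, Gria4 27.3% to 32.1%, Gria1 21.1% to 22.9% and Gria3 15.4% to 18.2%. Among the kainate subunits, Grik1 made up 43.3% to 49% and Grik5 40.5% to 45.9%, while Grik2, Grik3 and Grik4 contributed at most 5.29%, 4.65% and 2.01%. The high-affinity subunits Grik4 and Grik5 together were 45.3% ± 2.29 (SD, n = 4) of the kainate sum in control and 43.4% ± 1.24 (SD, n = 4) in Rbfox2 KD retinas, and these ranges overlapped. The summed FPKM was 53.3 to 57.7 in control and 54 to 56.7 in Rbfox2 KD retinas for the AMPA genes. For the kainate genes the sums were 68.8 to 72.7 in control and 69.3 to 70.3 in Rbfox2 KD, so that both families overlapped between groups. These shares follow the lengths used for FPKM and count transcripts, not receptors.

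**Figure D4:**
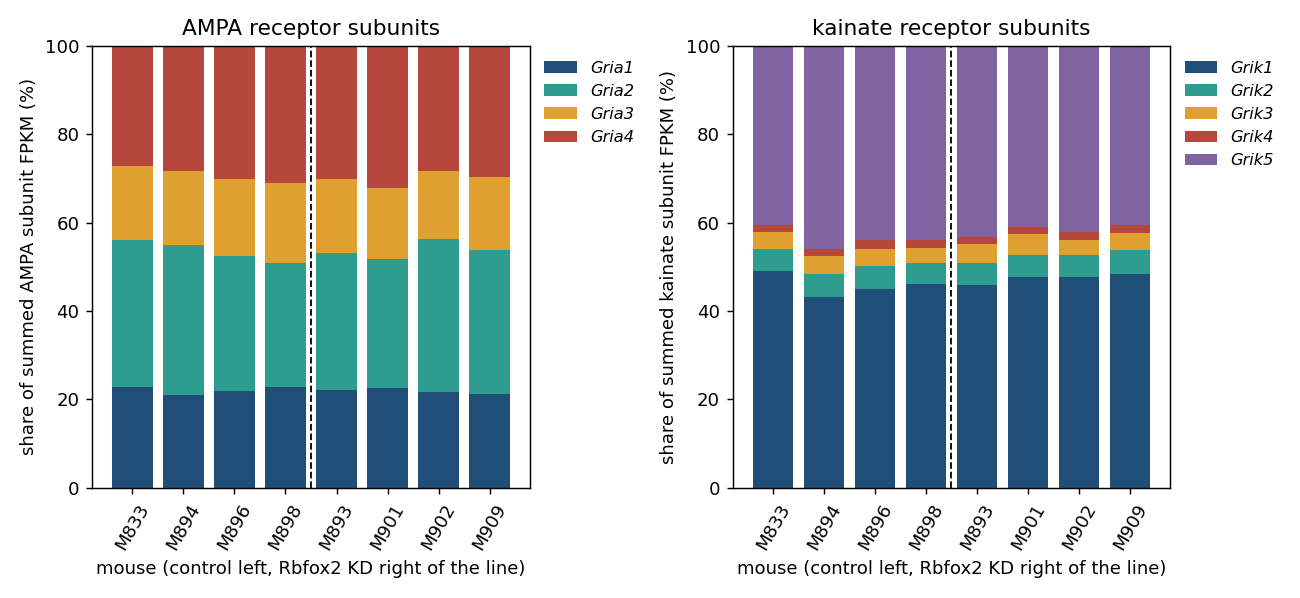
Share (%, y axis) of each gene in the summed FPKM of the AMPA subunits (left panel) and of the kainate subunits (right panel) in each mouse (x axis), with control mice left and Rbfox2 KD mice right of the dashed line. Gria2 and Gria4 make up most of the AMPA bars and Grik1 and Grik5 most of the kainate bars in all 8 retinas.

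AMPA and kainate receptors work with auxiliary and scaffold proteins, and the genes of 7 lists were examined for the same comparison. Of the 12 auxiliary AMPA subunits, which are the TARP (Cacng), cornichon (Cnih), Gsg1l and Shisa proteins that set trafficking and gating, none passed an unadjusted p of 0.05 (median log2 fold change -0.02, range -0.10 to 0.12). The lowest p was 0.0906 for Cnih2 (0.12 ± 0.06, log2, SE) and the next was 0.194 for Shisa6 (-0.10 ± 0.08), both in edgeR. None of the 10 genes for AMPA receptor assembly and extracellular partners passed either (median -0.01). Nptxr, a neuronal pentraxin receptor that binds AMPA receptors, came nearest with 0.12 ± 0.06 (unadjusted p = 0.0637, edgeR across all genes), followed by Prrt1 with 0.09 ± 0.06 (unadjusted p = 0.176). The kainate auxiliary subunits Neto1 and Neto2 and the C1q-like partners C1ql2 and C1ql3 also gave 0 of 4, with the lowest p at 0.49 for Neto2 (-0.04 ± 0.06) and 0.627 for C1ql3 (0.04 ± 0.07). For these 26 genes together the count was 0, against 13.3% of all tested genes in either direction.

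Among the 10 scaffold and trafficking genes, 2 were higher and 1 was lower at an unadjusted p of 0.05. Over all tested genes, 6.42% were higher and 6.87% lower at that threshold. None of the 10 passed after adjustment in edgeR (lowest adjusted p = 0.239). Dlg4, which encodes PSD-95, a scaffold of excitatory synapses, was at 739, 722, 664 and 622 CPM in control retinas and at 749, 773, 803 and 830 CPM in Rbfox2 KD retinas. All 4 Rbfox2 KD retinas were above all controls, by a log2 fold change of 0.20 ± 0.06 SE (unadjusted p = 0.00741, edgeR), and the adjusted p was 0.239 in edgeR and 0.0392 in DESeq2. Dlg1, the gene of the related scaffold SAP97, had 147 to 157 CPM in control and 152 to 177 CPM in Rbfox2 KD (0.16 ± 0.05, unadjusted p = 0.00712), and M893 lay within the controls. The Dlg1 difference no longer passed without M901 and M902, with a term for them or with 1 surrogate variable, and its exact permutation p was 0.0571. Dlg3, which encodes the scaffold SAP102, had 68.9 to 72.9 CPM in control and 61.8 to 68.1 CPM in Rbfox2 KD (-0.12 ± 0.04, unadjusted p = 0.0193), and it no longer passed when M898, M902 or M909 was left out, with a term for M901 and M902 or with 1 surrogate variable.

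Of the 3 RNA editing enzymes, Adarb1, which encodes the enzyme that edits the GluA2 pore codon, gave -0.01 ± 0.05 (log2, SE; adjusted p = 0.963, edgeR). Its levels were 406, 424, 445 and 427 CPM in control and 434, 453, 414 and 391 CPM in Rbfox2 KD retinas, which overlapped. Adar gave -0.01 ± 0.04. Adarb2, an ADAR family member without known editing activity, was at 13.2 to 13.8 CPM in control and 12.2 to 12.7 CPM in Rbfox2 KD (-0.11 ± 0.04, unadjusted p = 0.0297, adjusted p = 0.333, edgeR).

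In the other glutamate receptor families, 2 of 9 NMDA and delta receptor genes were lower at an unadjusted p of 0.05, and none was higher (median log2 fold change -0.10). The shares of all tested genes were 6.87% lower and 6.42% higher at that threshold. Grin1, the obligatory NMDA receptor subunit, was at 141, 159, 156 and 150 CPM in control and 139, 139, 129 and 127 CPM in Rbfox2 KD retinas. The groups did not overlap, with a change of -0.18 ± 0.05 (log2, SE; unadjusted p = 0.00299, adjusted p = 0.192, edgeR), and with DESeq2 it passed (adjusted p = 0.026). Grin2d gave -0.15 ± 0.06 (unadjusted p = 0.0326). Of the 8 metabotropic receptor genes, 1 was lower and 1 higher at that threshold, and both separated the groups. Over all tested genes, 3.64% separated the groups with Rbfox2 KD above and 3.39% with it below. Grm5 was at 31.5 to 36.8 CPM in control and 29.5 to 30.7 CPM in Rbfox2 KD (-0.21 ± 0.05, unadjusted p = 0.00201). Grm8 was at 34.2 to 37.1 CPM in control and 38.9 to 42.4 CPM in Rbfox2 KD (0.18 ± 0.05, unadjusted p = 0.00219). Neither passed after adjustment in edgeR (adjusted p = 0.178 and 0.179), whereas both passed with DESeq2 (adjusted p = 0.0115 and 0.0137). Whether the AMPA and kainate genes differ from these families in their response was not tested.

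**Figure D5:**
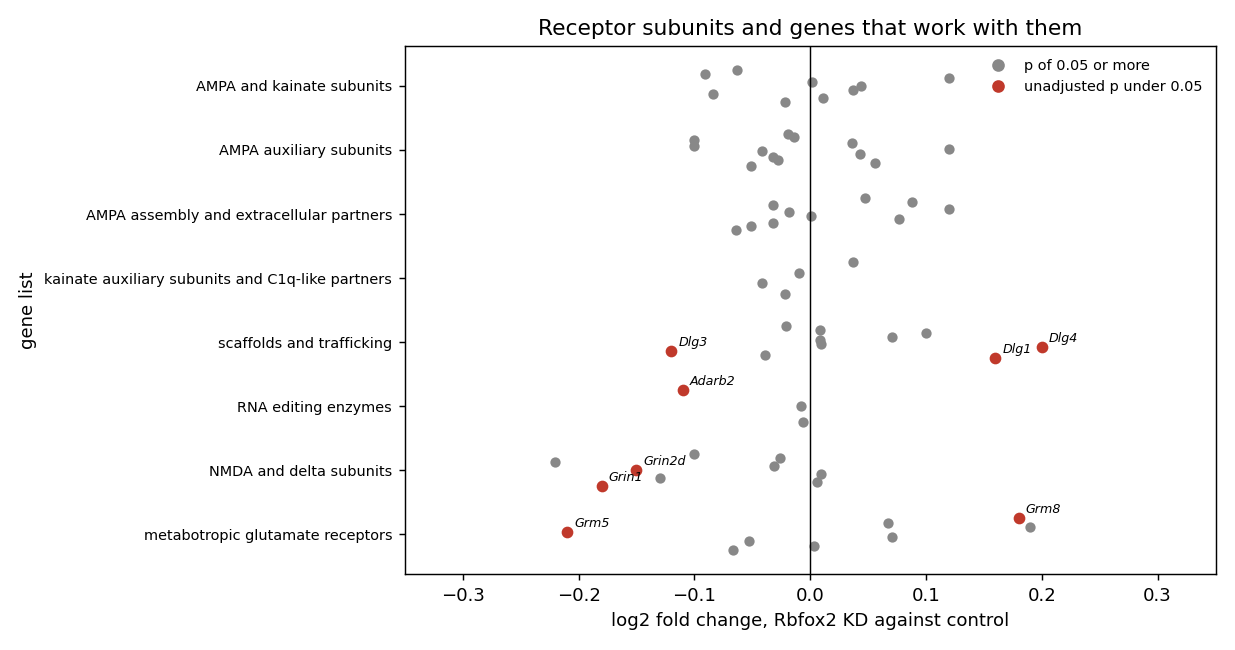
Log2 fold change (x axis) in Rbfox2 KD against control of the 9 subunit genes and of the genes of 7 related lists (y axis), 1 point a gene. Red points have an unadjusted p under 0.05 in edgeR: there are 0 among the subunits and among their auxiliary and partner genes, 3 among scaffold genes, 1 among editing enzymes, 2 among NMDA and delta genes and 2 among metabotropic genes. Of all tested genes, 13.3% have such a p in either direction.

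The cells that carry these receptors were followed through marker lists, given here as summed CPM. The 4 OFF bipolar markers summed to 101 to 106 in control and 100 to 105 in Rbfox2 KD retinas. The 6 amacrine markers summed to 910 to 989 and 911 to 958, and the 5 ON bipolar markers to 1013 to 1133 and 996 to 1065. These sums overlapped between groups, but single members did not. Isl1 (ON bipolar) gave -0.19 (log2, unadjusted p = 0.000532, edgeR) and Slc6a9 (amacrine) -0.08 (unadjusted p = 0.0531), with every Rbfox2 KD retina below every control. Nnat (OFF bipolar) gave 0.25 (unadjusted p = 0.0026), with every Rbfox2 KD retina above every control. None of them passed after adjustment, and the other members of these lists overlapped. The 4 horizontal cell markers summed to 99.6 to 106 in control and 81.6 to 85.6 in Rbfox2 KD, without overlap. Most of this sum was Calb1, at 73.9 to 78 CPM in control and 56.3 to 60.5 CPM in Rbfox2 KD. Calb1 alone among them passed after adjustment (log2 fold change -0.40, adjusted p = 0.00341, edgeR). The paper describes calbindin as a common marker of amacrine cells as well as horizontal cells. On retinal sections, the paper reports that calbindin staining, a measure of protein, appeared unaffected. Of the remaining horizontal markers, Onecut1 gave -0.13 (log2, unadjusted p = 0.0527, edgeR), with every Rbfox2 KD retina below every control, Onecut2 gave -0.20 (unadjusted p = 0.0759) and Lhx1 was higher by 0.18 (unadjusted p = 0.0376). The 6 retinal ganglion cell markers summed to 444 in control M833 and to 714 to 748 in the other controls, and to 579 to 766 in Rbfox2 KD retinas. Among the subunits, M833 had the highest value of the 8 mice for 3 genes and the lowest for 1. The 5 rod markers summed to 54121 to 57919 in control and 55943 to 61066 in Rbfox2 KD, which overlapped. Gnat1 gave 0.19 and Pde6b 0.13 (log2, unadjusted p = 0.00652 and 0.00988, edgeR), with every Rbfox2 KD retina above every control. The other rod markers overlapped between groups. The 5 cone markers summed to 808 to 821 and 861 to 985, and the 5 Muller glia markers to 4207 to 4557 and 3908 to 4140, both without overlap. Their members did not all move together. Among the cone markers, Opn1sw gave 0.26 and Opn1mw -0.23 (log2, unadjusted p = 0.0031 and 0.0379, edgeR). Arr3 gave 0.20 (unadjusted p = 0.052, edgeR), Pde6h 0.07 and Gnat2 0.05, so that Opn1mw alone was lower. Among the Muller glia markers, Glul, the most abundant, gave -0.17 and Vim -0.14 (log2, unadjusted p = 0.00496 and 0.0927, edgeR). Slc1a3 gave -0.04, Rlbp1 0.05 and Aqp4 0.04. The 5 ciliary and pigment epithelium markers, from tissue beside the retina, summed to 60.7 to 112 and 41.6 to 131. Best2 was at 0.15 and 0.208 CPM in M901 and M902, and at 4.14 to 16 CPM in the other mice. Every Rbfox2 KD retina was below every control for Best2. Slc13a4 was at 1.48 and 1.29 CPM in M901 and M902, and at 10.4 to 21.9 CPM in the others. Rpe65, Ttr and Tyr did not separate both of these mice from the rest. The part of these cell marker differences in the subunit values was not tested.

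By Pearson correlation of log2 CPM over the 8 mice, among 13755 other genes with a mean of at least 1 CPM, the genes whose levels were most like those of Gria3 were Sox18 (r = 0.977), Kif26b (0.964), Rwdd2a (0.954), Atp6v1a (0.95) and Klf3 (0.945). For Grik5 they were Zdhhc8 (r = 0.968), Epha8 (0.964), Sema4c (0.961), Crispld1 (0.959) and Ddhd2 (0.958). These are the highest of many correlations over 8 libraries that share their scaling, and they are given as a description only.

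The element TGCATG, written UGCAUG in RNA and bound by Rbfox proteins, was counted on the transcript strand in a single annotated transcript of each gene. The introns, where Rbfox proteins often bind, were not searched. The element occurred in the 3′ UTR of 6 of the 9 genes, against 32% of 14011 transcripts of tested genes, and in the coding sequence of 3 of 9, against 30.6%. The 3′ UTR counts were 5 in Grik4, 3 each in Gria2 and Gria3, and 1 each in Gria1, Gria4 and Grik3. Those of Grik4 began 1162 to 1278 bases after the stop codon, within or near a run of GT repeats. The matches at 1202 and 1206 bases overlapped, so the 5 are not all separate elements. Long 3′ UTRs hold the element often. Among 3′ UTRs of similar length (0.8 to 1.2 times that of the gene), 92.8% held it for Gria2 (7268 bases), 52.7% for Gria3 (2264 bases) and 57.7% for Grik4 (2694 bases). In Grik1, Grik2 and Grik5, whose 3′ UTRs are 294 to 520 bases long in the transcripts searched, these letters were not found. The Grik2 transcript has 3083 bases, against 13246 in the union of its annotated exons, so that most of its annotated sequence was not searched. The windows below show the coding elements of Gria1, Gria2 and Gria3 and the 3′ UTR elements of Gria3, the subunit with the lowest p, with the element in capitals.
Gria1 coding sequence (exon 16 of 16, chr11:57327590-57327613, plus strand): tccattcccTGCATGagccacagt
Gria2 coding sequence (exon 3 of 16, chr3:80741094-80741117, minus strand): gtgggacacTGCATGtatccttca
Gria3 coding sequence (exon 6 of 16, chrX:41588486-41588509, plus strand): aaagagtcaTGCATGggggagcca
Gria3 3′ UTR (chrX:41677554-41677577, plus strand): ccgtcagacTGCATGtgtcctttt
Gria3 3′ UTR (chrX:41678328-41678351, plus strand): aaaaaaactTGCATGtttaaaaaa
Gria3 3′ UTR (chrX:41678503-41678526, plus strand): agtgtaaatTGCATGtgtgggcat
The fitted log2 fold changes of the 6 genes with the element in the 3′ UTR ran from -0.09 for Grik4 to 0.12 for Grik3, and those of the other 3 from -0.06 for Grik5 to 0.04 for Grik1. None of these changes passed the test, and a match of these letters shows neither binding nor regulation.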

How the data were processed

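Whole-retina RNA was poly(A)-selected and sequenced by the authors, who aligned paired reads to mm10 with STAR and counted uniquely mapped fragments per gene with HTSeq. RefSeq and Ensembl annotations are both named for this step, and the submitters' processing notes also name CASAVA 1.8.2 and edgeR. The deposited values used here were raw fragment counts per gene and mouse, and deposited FPKM values, which in all 17500 genes equal the count divided by the library total and 1 length per gene. The other 16 columns of single mice (8 normalized counts, 8 comparisons with the other group) and the authors' fold changes, p-values and FDR were not used. Every gene of the table has at least 5 counts in 4 or more mice.

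Groups followed the labels. Counts were filtered with filterByExpr, scaled by TMM and fitted with edgeR 4.0.16 (R 4.3.3, glmQLFit and glmQLFTest, group alone, 16797 genes, Benjamini-Hochberg adjustment). Standard errors were recovered from each estimate and its F statistic, and 95% intervals use the t distribution with the fit's total degrees of freedom. In counts simulated from these libraries with 200 genes changed 2-fold among 16717 tested, 90.5% were called, with 10 false calls. The changed genes were drawn from those with higher counts. Changes as small as those fitted for the subunits were not simulated, so the power to call them is not known from this. Alternatives were DESeq2 1.42.0, the edgeR likelihood ratio test, limma 3.58.1, other normalizations and filters, each mouse left out, and M901 and M902 removed or modelled, or 1 surrogate variable (sva 3.50.0). The exact permutation test used log2(CPM + 0.5) and was two-sided. No 2 libraries of a group agreed within sampling noise. The titles name 1 mouse per sample, so that the tests set the group difference against the spread between mice. In edgeR this spread is moderated across the tested genes.

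Named genes were the 9 subunits, Rbfox2, every gene of the 7 lists with an unadjusted p under 0.05 or else the 2 with the lowest p, and the 5 genes most like Gria3 and Grik5, the AMPA and kainate genes of lowest p. Marker lists were given as sums. Individual marker genes, Xist and the editing enzymes Adar and Adarb1 were named after their values were seen. The members and lists were chosen with earlier results of these data known. Gene positions and sequences come from the GENCODE annotation of GRCm38, the build the authors used, through the RefSeq accession of each gene. Epb41l1 of the scaffold list was matched through an older symbol. The driver of the Cre transgene is not reported here.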

Additional observations from a re-analysis of the deposited data

Results flagged for a closer look

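Within-group values were examined in 54 groups of 4 mice (the subunits, Rbfox2, the marker sums and the other named genes), and 3 of them had 1 mouse far from the other 3, where chance flags about 1 in 20 groups, or 2.7. Among the subunits this was Gria3 in control M896, at 51.3 CPM against 49.2 to 49.5 CPM in the other controls, a difference that stands out because those 3 were so close. Without M896 the Gria3 change was -0.07 on the log2 scale (unadjusted p = 0.162, edgeR). Summed retinal ganglion cell markers were 444 CPM in control M833, against 714 to 748 CPM in the other controls. Summed cone markers were 985 CPM in Rbfox2 KD M902, against 861 to 878 CPM in the other Rbfox2 KD retinas.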

How the results depend on the processing

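No subunit passed an adjusted p of 0.05 under any alternative (lowest 0.262, over 180 results of 9 subunits under 20 alternatives each). The number of genes called among all tested was 11, but 465 with DESeq2, 164 with the likelihood ratio test, 5 to 35 with 1 mouse left out (highest without M833), 1 without M901 and M902, 4 with a term for them and 5 with 1 surrogate variable; the cause was not tested. The number of subunits with an unadjusted p under 0.05 was 1 with upper-quartile normalization and 0 to 2 with 1 mouse left out. With the union of exons as the length, 2 of 9 subunits kept their rank. Direction held in 166 of the 180 subunit results, and the 14 that turned were of subunits with changes near 0. Gria2 was -0.0053 without M901 and M902, -0.0029 with a term for them and -0.036 with 1 surrogate variable, where Grik1 was -0.0013 and Grik2 -0.023; Grik2 was -0.0047 with upper-quartile normalization. With 1 mouse left out, Gria1 ran from -0.045 to 0.0041, Gria2 from -0.067 to 0.056, Gria4 from -0.003 to 0.066 and Grik2 from -0.039 to 0.026. Of the other named genes, Adarb2 lost an unadjusted p under 0.05 in 7 of 20 alternatives (the likelihood ratio test, without M894, M896, M893, M902 or M909 each, and without M901 and M902). Grin2d lost it in 9 (the likelihood ratio test, without M894, M896, M902 or M909 each, without M901 and M902, with a term for them, with 1 surrogate variable, and in the permutation test). Dlg4, Grin1, Grm5 and Grm8 kept it under all 20, and passed an adjusted p of 0.05 with DESeq2 only. No paired analysis was possible because the groups share no replicate numbers.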
